A study of Populus ussuriensis with 18 samples.

Results

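Steady, highly expressed loci were followed at the cut base of stem pieces of Populus ussuriensis, a poplar, over 96 h. FPKM relates reads to transcript length and sequencing depth, and the level of a locus is the sum of the FPKM of its transcripts. A locus was taken as steady and highly expressed when its mean over the 8 time points from 0.5 h to 96 h was at least 50 FPKM and its highest and lowest time points differed by at most 0.5 on the scale of log2(FPKM + 1), a 1.41-fold span. Of 36385 loci listed, 2248 reached the level and 79 of these met both conditions. The 79 loci were chosen by their FPKM values after cutting, so their levels and ranges after cutting are descriptions and carry no test.

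The plants were 2 weeks old and were raised in vitro at 25 °C with 20 g/L sucrose in the medium, in days of 16 h light and nights of 8 h. All groups came from the same kind of plant, with no mutant or added hormone named in the labels, and differed only in time: the lowest 0.5 cm of the stem was taken 0, 0.5, 1, 2, 6, 12, 24, 48 or 96 h after cutting. Each time point had 2 libraries of total RNA, 18 in all, and no uncut plants accompany the later times, so time after cutting and time of day or age cannot be told apart. Whether the 2 libraries came from separate plants is not stated, so the p-values speak of differences among these libraries alone, and that spread may be technical. In bulk tissue, fewer cells of a type and less RNA per cell cannot be told apart.

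Stem cuttings of poplar form adventitious roots from the cut end, a process that passes through wound responses, reprogramming of cells and outgrowth of root primordia. Transcript levels over such a course are often measured by quantitative PCR, which reads a target against a reference gene whose own level should hold still. Reference genes of plants are usually taken from housekeeping families such as actins, tubulins, ubiquitins and translation factors. The files do not pair the locus identifiers with gene names, so no family or function is given for any of the 79 loci, and the tissue markers were not analysed here.

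The read totals were recovered from the steps of low FPKM values, on the assumption of single reads. Libraries of 0 h were fitted at 21914571 and 25026198 reads, and those after cutting at 28460172 to 30651830. The 0 h totals are less certain: 36.0% and 32.6% of their low values gave a whole transcript length, against 57.2% to 63.1% in the later libraries. The summed reads of the 79 loci ran from 729 to 24967 per library after cutting, and the median locus had 3333 reads in its shallowest library. The counting error was therefore at most 3.70% of a value (Poisson SD, counting error only). The 2 tables at 0 h differed in kind from the others, in their headers and in the share of low values that gave a whole length. Among transcripts of loci with at least 50 FPKM, 25.1% and 24.6% of the nonzero 0 h values matched a whole number of reads to 0.01. Every such value matched in the 16 later libraries, but the transcript lengths were chosen to give whole reads there. The later match was thus fixed by that choice, and nothing is read from its difference from 0 h.

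A small share of strongly expressed loci held still. The 79 loci are 3.51% of the 2248 with at least 50 FPKM. The median range of those 2248 loci was 1.48 on the log2 scale, 1708 of them (76.0%) spanned more than 1, and 741 (33.0%) more than 2. The share was similar across levels: 3.71% of loci from 50 to 100 FPKM were steady, 2.91% from 100 to 200 FPKM and 3.87% above 200 FPKM. Below the level limit the shares were 6.24% from 20 to 50 FPKM, 7.19% from 10 to 20 FPKM and 6.42% from 5 to 10 FPKM.

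**Figure D1:**
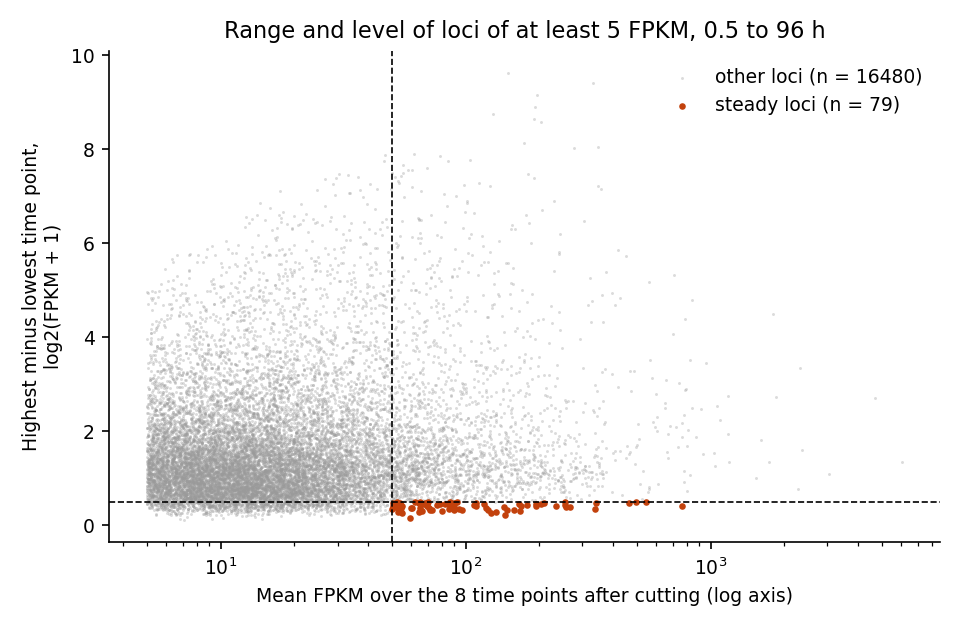
Each point is a locus with a mean of at least 5 FPKM; the horizontal axis is its mean FPKM over the 8 time points after cutting (log axis), and the vertical axis is its highest minus its lowest time point on the log2(FPKM + 1) scale. The dashed lines are the limits of 50 FPKM and 0.5, and the 79 steady loci lie in the lower right corner, below most loci of their level.

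The limits cut through a continuous cloud. The members with the widest spans were Potri.006G139300 at 0.496, Potri.007G026200 at 0.496 and Potri.004G078000 at 0.495. Just outside lay Potri.011G138400 at 0.502, Potri.007G054100 at 0.505 and Potri.005G007300 at 0.506. At the level limit, Potri.013G154800 had a mean of 50.1 FPKM and Potri.002G253500 and Potri.010G151300 had 50.7 FPKM. Potri.014G172200, Potri.001G307400 and Potri.001G146100 stayed outside with 48.6, 47.9 and 47.7 FPKM.

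Levels among the 79 loci spread over more than an order of magnitude. Means from 50 to 100 FPKM were found in 48 loci, from 100 to 200 FPKM in 18 and above 200 FPKM in 13. The coefficient of variation over the 16 single libraries ran from 5.93% to 15.7% with a median of 10.9%, and 34 loci were under 10%. All of these exceeded the counting error.

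The highest level belonged to Potri.001G181800, with 2 listed transcripts. Its pairs of libraries held, in FPKM, 568, 789.9 (0.5 h), 720.5, 783 (1 h), 714, 673 (2 h), 706, 678 (6 h), 835, 939 (12 h), 847, 881 (24 h), 833, 963 (48 h) and 681, 676 (96 h). The 12 h to 48 h libraries were the high ones, and the 2 libraries of 0.5 h differed by more than the means of any 2 time points. With 821 and 699 FPKM at 0 h it stood inside the span of the later libraries.

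Potri.007G026200 and Potri.007G026100 followed in level, with means of 545 and 497 FPKM. Each has 1 listed transcript, of 330 bp and 162 bp. Over the 16 libraries Potri.007G026200 ran from 438 to 684 FPKM with a median of 537, and Potri.007G026100 from 377 to 626 with a median of 501. Potri.001G295900, with 1 transcript of 306 bp, had a mean of 467 FPKM and ran from 359 to 641. The short transcripts therefore hold the next places after the leader.

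The remaining 6 of the 10 highest loci have between 3 and 9 listed transcripts. Potri.001G309500 averaged 342 FPKM, Potri.012G033000 338, Potri.002G108600 267, Potri.001G222200 258, and Potri.008G051900 and Potri.004G078000 253 each. Potri.001G309500 was highest at 24 h, with 412 and 388 FPKM, and lowest at 96 h, with 308 and 269.7. Potri.002G108600 was lowest at 1 h, with 241 and 224 FPKM, and highest at 48 h, with 312 and 297.

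The narrowest span of all belonged to Potri.002G139900, with 5 listed transcripts and a range of 0.15. Its pairs of libraries held, in FPKM, 65.1, 57.8 (0.5 h), 59.4, 58.5 (1 h), 64.1, 59.8 (2 h), 58.1, 64.9 (6 h), 53.3, 61.1 (12 h), 57.4, 59.3 (24 h), 58.3, 58.0 (48 h) and 61.1, 50.2 (96 h). The 2 libraries of 96 h were further apart than the means of any 2 time points. At 0 h it had 58.2 and 54.1 FPKM, within the later span.

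Potri.009G125000 came second, with 2 listed transcripts and a range of 0.21. Its pairs of libraries held, in FPKM, 123, 158 (0.5 h), 137, 129 (1 h), 138, 141 (2 h), 146, 144 (6 h), 149, 148 (12 h), 143, 162 (24 h), 149, 158 (48 h) and 151, 150.0 (96 h). The lowest value and one of the 3 highest both came from 0.5 h. At 0 h it had 145 and 148 FPKM.

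The other 8 of the 10 narrowest loci had ranges from 0.26 to 0.30. They were Potri.004G040100, Potri.014G194700, Potri.001G038100, Potri.001G269900, Potri.013G064400, Potri.012G064100, Potri.008G147800 and Potri.003G101600. Potri.004G040100 had the lowest coefficient of variation of all 79, 5.93%, with libraries from 115 to 144 FPKM. Of the 79 loci, 10 had ranges of at most 0.3, 26 between 0.3 and 0.4, and 43 above 0.4.

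The rule used these means, so the small movements of the 79 loci are only described by time point. Their lowest time point was 1 h in 21 loci, 96 h in 12, 48 h in 11 and 24 h in 3. The highest was 2 h in 18 loci, 6 h in 12, 0.5 h and 24 h in 11 each, and 1 h in 4. The median locus lay at -0.12 relative to its own mean at 1 h and at 0.05 at 2 h, on the log2 scale.

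The other 2169 loci of at least 50 FPKM moved more by the rule, so their contrast with the 79 is a description. Their median deviation reached -0.36 and -0.38 at 1 h, against 0.18 and 0.24 at 12 h. In the 79 loci the medians of the 16 libraries stayed between -0.11 and 0.06. Their lowest time point was 1 h in 28.7% of the 2169 loci, and 24 h in 1.38%. The 79 loci together held between 1.72% and 1.91% of the FPKM listed in a library after cutting.

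**Figure D2:**
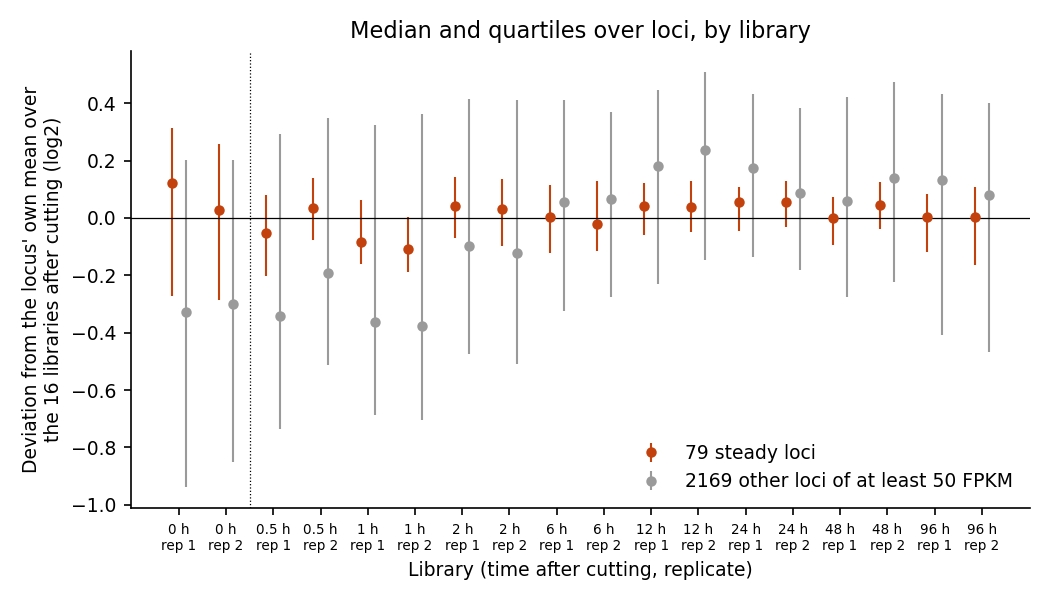
For each library (horizontal axis), points are the median deviation over loci from each locus' own mean over the 16 libraries after cutting, in log2 units, and bars run from the lower to the upper quartile. The 79 steady loci stay between -0.11 and 0.06 after cutting, by the way they were chosen, while the 2169 other loci lie below 0 up to 2 h and above 0 from 6 h on.

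Steady in size is not the same as without change. By limma's F test over the 8 time points, 54 of the 79 loci had a Benjamini-Hochberg adjusted p below 0.05, against 91.9% of the 26626 loci tested after cutting. The choice of loci used the same means, so nothing is read from this difference. Potri.001G236500 had a range of 0.45 and an adjusted p of 0.00475 in this limma F test, and Potri.013G064400 a range of 0.29 and 0.137.

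Single libraries spread more than the means that chose the loci. Over the 16 libraries taken one by one, 42 of the 79 loci stayed within 0.5, 3 spanned more than 0.8 and none more than 1. The widest, named after its values were seen, was Potri.010G251500 at 0.91, where the 0.5 h libraries held 74.0 and 122 FPKM and the 12 h libraries 121 and 140.2. The median locus had a difference of 0.07 between the 2 libraries of a time point, taken as the median over time points, against 0.12 in the other 2169 loci. The choice used these same libraries and favours loci with little spread, so nothing is read from this gap.

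Choosing in 1 set of libraries and measuring in the other gives values that the choice did not use. The 2 sets may still come from the same plants, so their agreement may be technical and is given as a description. The rule applied to the 8 replicate 1 libraries alone found 64 loci, and 58 of these are among the 79. In the replicate 2 libraries these 64 loci had a median range of 0.44, and 45 of them were again within 0.5. None exceeded 0.78. The reverse choice also found 64 loci, with a median range of 0.42 in the replicate 1 libraries, where 44 were within 0.5 and the widest reached 1.02. Loci of at least 50 FPKM had median ranges of 1.5 and 1.52 in the same measurements, and 2.84% and 2.75% of them were within 0.5. The lists from the 2 replicates shared 44 loci, 68.75% of each.

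**Figure D3:**
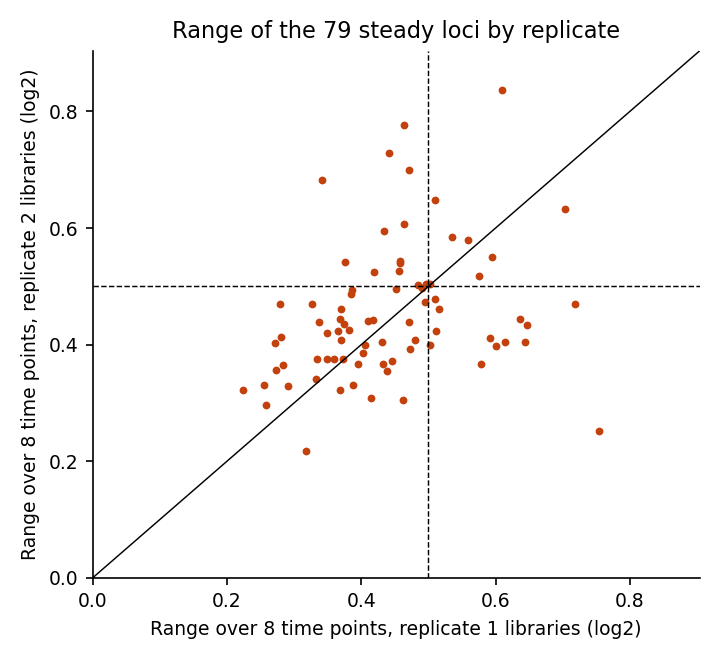
Each point is 1 of the 79 loci, with its range over the 8 time points in the replicate 1 libraries (horizontal axis) and in the replicate 2 libraries (vertical axis), in log2 units. Dashed lines mark 0.5 and the solid line equal ranges: 45 loci were within 0.5 in both, 13 in replicate 1 alone, 13 in replicate 2 alone and 8 in neither.

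Which loci count as steady depends on the scaling of the libraries. With quantile normalization 92 loci met the rule, 68 of them among the 79. With each library divided by its median ratio to the geometric mean of all loci, 102 met it, but only 36 of them were among the 79. The scale factors of that method ran from -0.29 on the log2 scale in a 1 h library to 0.20 in a 96 h library, so relative to the typical locus a locus with equal FPKM was higher at 1 h than at 96 h. Under median-ratio scaling the 79 loci had a median range of 0.51 and a widest range of 0.86, in Potri.009G018600. All 79 stayed within 1 under both.

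The loci that also passed under both other scalings, in each replicate alone and with 0 h were counted after their values were seen. Of the 79 loci, 33 were steady under both other scalings too. Of these 33, 26 passed in the replicate 1 libraries alone, 23 also in the replicate 2 libraries alone, and 14 also with the 0 h libraries included. Each of the 14 has several listed transcripts, from 2 to 7, and their means run from 53.3 FPKM in Potri.001G080400 to 145 FPKM in Potri.009G125000.

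Potri.009G125000 had ranges of 0.21 over 0 h to 96 h, 0.17 after quantile normalization and 0.27 after median-ratio scaling. It ran from 123 to 162 FPKM over all 18 libraries. Potri.014G194700 had ranges of 0.27, 0.26 and 0.27 in the same order and ran from 45.5 to 62.6 FPKM. Potri.001G269900 had 0.28, 0.19 and 0.42, and ran from 57.1 to 72.6 FPKM. Potri.002G139900, the narrowest locus in FPKM, is not among the 14. All 18 libraries, 0 h included, took part in choosing the 14, so these values are a description.

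The choice of the 79 loci did not use 0 h, and a comparison with it asks whether the level held after cutting is also that of freshly cut stems. For most of the loci it was close. The 0 h level lay within 0.5 on the log2 scale of the later mean in 60 of the 79 loci (75.9%), against 943 of the 2169 other loci of that level (43.5%). Of all loci tested 51.3% were within 0.5 by limma's difference. The 2169 loci exceed the range limit by the rule, so the gap between these shares is not read as a result. Both 0 h libraries lay inside the span of the 16 later ones in 27 loci, above all of them in 22 and below all of them in 20. Of all loci tested 58.6% were inside, 11.6% above and 15.1% below, and of loci of at least 50 FPKM 59.9%, 10.1% and 18.7%. The choice had fixed the later span of the 79 loci as narrow, so nothing is read from these counts. In the other 10, a 0 h library was inside and the other outside that span.

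limma's test of 0 h against the mean of the later time points called 52 of the 79 loci at a Benjamini-Hochberg adjusted p below 0.05, or 65.8%. Over all 26765 loci tested the share was 69.7%, which is near that of the 79. Of the 52, 27 (34.2%) were higher at 0 h and 25 (31.6%) lower, against 29.6% and 40.1% of all loci tested. Among loci of at least 50 FPKM, 24% were higher and 54.7% lower. The median log2 difference was 0.07 in the 79 loci, -0.11 in all loci tested and -0.30 in loci of at least 50 FPKM. Quantile normalization moved the median of all loci to 0.07 and called 45 of the 79 higher and 18 lower. Every value against 0 h carries the difference in kind between the files, and its part in them cannot be told apart from cutting.

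In 33 of the 52 called loci (63.5%) the difference was under 0.5, against 30.8% of all called loci and 30.2% of called loci of at least 50 FPKM. The choice of the steady loci favoured little spread between libraries, where small differences are more easily called. Nothing is therefore read from the gap between these shares. At least 2-fold differences passed the test in 12 loci, 10 of them lower at 0 h and 2 higher, and all 12 are named here, some of them after their values were seen. Calls of at least 2-fold made up 14.3% (lower) and 7.65% (higher) of all loci tested, and 22.1% and 8.85% of loci of at least 50 FPKM.

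The 10 low loci include several that were near 0 at 0 h and among the strongest later. Potri.007G026100 read 0 at 0 h in each library and is given without a fold. Potri.002G108600 held 0.389 and 1.26 FPKM at 0 h and between 224 and 312 in the 16 later libraries, a log2 difference of -7.24 (SE 0.12, limma adjusted p by Benjamini-Hochberg 1.24e-15). Potri.001G295900 held 3.08 and 1.31 FPKM at 0 h, a difference of -7.24 (SE 0.18, limma adjusted p by Benjamini-Hochberg 1.81e-13). Values this low at 0 h make the size of the fold depend on the 1 FPKM added: with 0.1 FPKM the differences were -8.35 for Potri.002G108600 and -7.77 for Potri.001G295900.

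The groups did not overlap in any of these loci. Both 0 h libraries lay below all 16 later ones in 15.1% of all loci tested and 18.7% of loci of at least 50 FPKM. These loci were picked for large differences at 0 h, and the rule had fixed their later span as narrow. Nothing is therefore read from their lack of overlap. Potri.017G061800 held 2.70 and 2.83 FPKM at 0 h and between 38.1 and 62.1 later, a log2 difference of -3.86 (SE 0.10, limma adjusted p by Benjamini-Hochberg 1.69e-13). Potri.005G123700, with 1 transcript of 342 bp, held 22.7 and 15.9 FPKM at 0 h and between 129 and 196 later, a difference of -3.05 (SE 0.10, limma adjusted p by Benjamini-Hochberg 5.72e-12). Potri.007G026200 held 118 and 92.3 FPKM at 0 h, below its later minimum of 438. The other 4, Potri.001G236700, Potri.003G029800, Potri.016G095300 and Potri.013G129600, had log2 differences of -2.82, -2.60, -1.36 and -1.18.

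Low 0 h values went with short transcripts, a pattern chosen after the values were seen. The leading transcript of a locus, the one with the highest mean after cutting, is under 500 bp in 5 of the 79 loci, the longest of them Potri.003G029800 with 499 bp, and all 5 were at least 2-fold lower at 0 h. In longer ones it was 5 of 74, or 6.76%. The other loci of at least 50 FPKM showed the same, with 50 of 52 (96.2%) under 500 bp and 423 of 2117 (20.0%) from 500 bp on. Of the 16 steady loci with 1 listed transcript, 7 were at least 2-fold lower at 0 h, and of the 63 with several, 3 were. The 5 loci under 500 bp are all among these 7. The same split was not made in other loci, so it is not read as particular to the 79.

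The 2 loci at least 2-fold higher at 0 h were Potri.001G236500 and Potri.009G018600. Potri.009G018600, with 3 listed transcripts, held 474 and 391 FPKM at 0 h and between 175 and 275 in the later libraries. This gives a log2 difference of 1.05 (SE 0.10, limma adjusted p by Benjamini-Hochberg 2.19e-07). After cutting it was highest at 0.5 h, with 217 and 275 FPKM, and at 1 h, with 264 and 234, and lowest at 2 h, with 185 and 175.

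**Figure D4:**
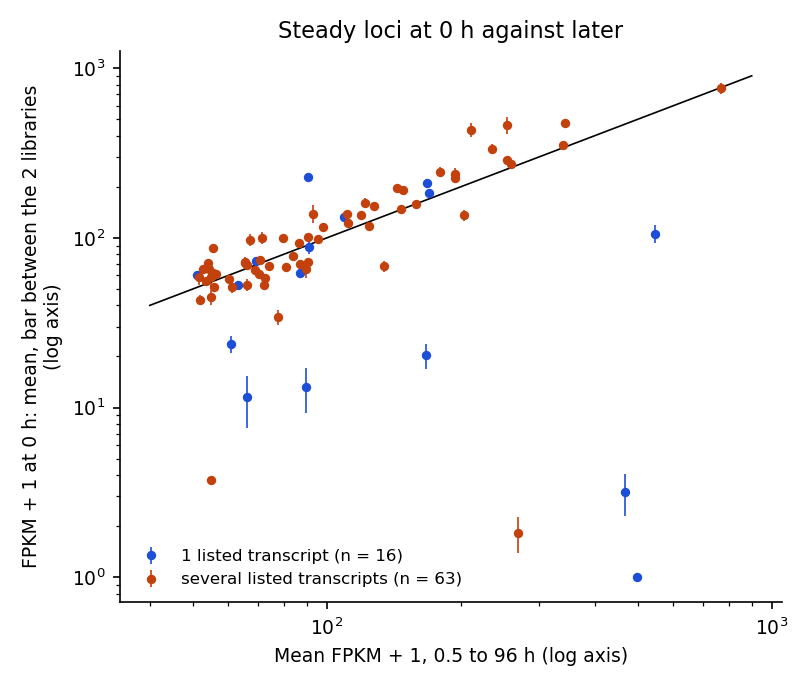
Each point is 1 of the 79 loci, with its mean FPKM + 1 from 0.5 h to 96 h (horizontal, log axis) and its FPKM + 1 at 0 h (vertical, log axis; the bar joins the 2 libraries), coloured by the number of listed transcripts. The solid line marks equal levels: 60 loci lie within 0.5 on the log2 scale of it, and 10 lie at least 2-fold below, 7 of these with 1 listed transcript.

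Some of the 79 loci are numbered next to each other, and they were picked out after their values were seen. Counting identifiers of the same prefix that differ by at most 500 in number, the set holds a trio and 2 pairs. In the trio, Potri.001G236500, Potri.001G236700 and Potri.001G236900, each with 1 listed transcript, had means of 89.7, 89.0 and 85.8 FPKM after cutting. Between Potri.001G236500 and Potri.001G236700 the log2 ratio stayed between -0.09 and 0.07 in all 16 later libraries. At 0 h it was 3.76 and 4.59, with 230.5 and 225 FPKM in the first locus and 16.1 and 8.34 in the second.

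Their sum moved less than their ratio. Together these 2 loci held 247 and 233 FPKM at 0 h and between 144 and 223 later, with a median of 182. With Potri.001G236900, which held 61.8 and 61.1 FPKM at 0 h, the trio summed to 308 and 294 FPKM at 0 h and to between 238 and 296 later. The log2 difference of 0 h from later was 1.34 for Potri.001G236500 (SE 0.07, limma adjusted p by Benjamini-Hochberg 1.26e-09) and -2.82 for Potri.001G236700 (SE 0.14, limma adjusted p by Benjamini-Hochberg 4.63e-10). Whether reads were shared between the neighbours was not tested, so the separate levels of these loci are uncertain.

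Of the 2 pairs, 1 also differed at 0 h. Potri.007G026100 and Potri.007G026200 had a log2 ratio between -0.43 and 0.22 after cutting, and at 0 h the first was listed at 0 while the second held 118 and 92.3 FPKM. Potri.008G051700 stayed below Potri.008G051900 in every library, with log2 ratios from -1.36 to -0.83 after cutting and of -1.07 in both 0 h libraries.

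The division of a locus over its transcripts was not part of the rule. Of the 79 loci, 63 have several listed transcripts, up to 14. Single-transcript loci made up 20.3% of the 79 and 40.8% of the other 2169 loci, and loci with 5 or more transcripts 31.6% and 13.6%. The leading transcript had a median length of 1541 bp in the 79 loci and 1355 bp in the others. These are counts of listed transcripts and lengths that give whole reads, and no test was made of them.

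limma's F test of the ratio of the leading to the other transcripts over the 8 time points called 0 of the 63 loci at an adjusted p below 0.05, and 4 had an unadjusted p below 0.05. Of all 10889 loci tested, 167 (1.53%) were called and 12.0% had an unadjusted p below 0.05. Among loci of at least 50 FPKM 1.71% were called. Calls with a change of at least 10 percentage points made up 1.11% of all loci tested and 0.892% of loci of at least 50 FPKM, and there were 0 among the 63. At such shares a count of 0 in 63 does not set the steady loci apart. The lowest adjusted p in the 63 loci was 0.172. The mean share moved by a median of 2.62 percentage points between its highest and lowest time points, close to the 2.85 points of loci of at least 50 FPKM, and by less than 5 points in 60 of the 63. Some shares lay near an even split, such as 12.4% to 13.0% over 9 listed transcripts in Potri.002G108600 and 50.5% to 52.3% over 2 in Potri.001G197900. Others did not, such as 89.3% to 91.1% over 2 in Potri.001G181800. How reads were divided among transcripts is not stated and was not tested, so flat shares are not read as steady use of each transcript. The median leading share in these loci was between 36.2% and 39.97% in the libraries after cutting and 92.9% and 91.9% at 0 h, so shares were not compared with 0 h.

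The widest share changes, named after their values were seen, did not pass the test. In Potri.002G110500, the share of transcript 2 was 54.4% and 57.6% at 0.5 h and 65.6% and 71.9% at 48 h. The mean share spanned 12.7 points, with an adjusted p of 0.285 by limma with Benjamini-Hochberg adjustment.

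Potri.011G091200, with 11 listed transcripts, showed a split between single libraries. Its transcript 11, of 1818 bp where the others have 4113 bp to 5787 bp, held, in FPKM, 25.4, 21.1 (0.5 h), 21.5, 5.59 (1 h), 4.63, 20.2 (2 h), 4.53, 6.36 (6 h), 5.55, 3.63 (12 h), 19.3, 23.5 (24 h), 18.7, 2.03 (48 h) and 19.96, 22.4 (96 h). Values lay either at 6.36 FPKM and below or at 18.7 and above, and the 2 libraries of 1 h, 2 h and 48 h fell on opposite sides. The other transcripts together held between 42.1 and 70.5 FPKM. Among them transcript 1, of 5787 bp, ran from 0.914 to 8.81 FPKM and moved opposite to transcript 11 (Pearson r -0.87 over the libraries after cutting). The rest had r between -0.32 and 0.24. The mean share of transcript 11 spanned 27.1 points (limma adjusted p by Benjamini-Hochberg 0.380), and at 0 h the transcript was listed at 0. The locus met the rule with a range of 0.45 over the means of 2 libraries, and spanned 0.84 over single libraries.

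**Figure D5:**
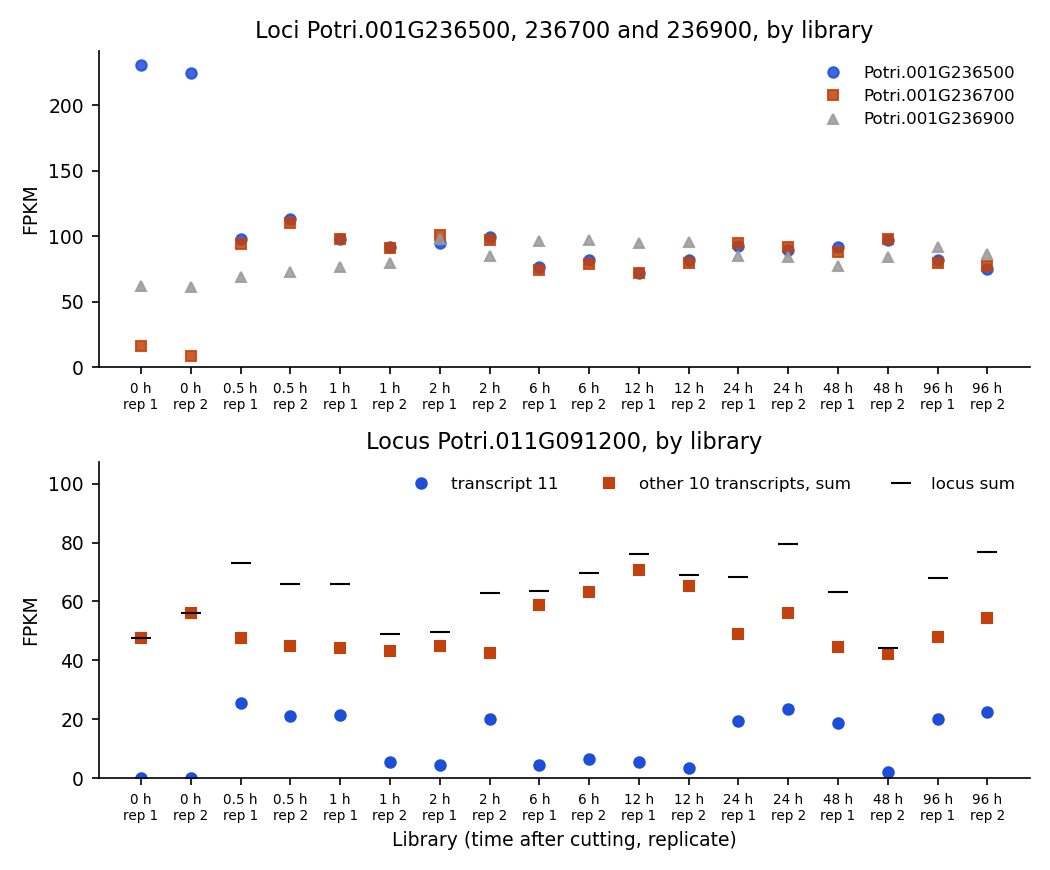
Upper panel: FPKM of Potri.001G236500, Potri.001G236700 and Potri.001G236900 in each of the 18 libraries (horizontal axis), where the first 2 coincide after cutting and stand apart at 0 h. Lower panel: FPKM of transcript 11, of the sum of the other transcripts and of the whole locus for Potri.011G091200, where transcript 11 takes either low values up to 6.36 or values from 18.7 on.

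Averaging over several of the 79 loci narrowed the spread between libraries. The geometric mean of all 79, taken as the mean log2 value and set to 0 over the 16 libraries, ran from -0.09 to 0.05, a span of 0.13. The 10 narrowest loci gave the same span of 0.13 and the 3 narrowest gave 0.17. The narrowest single library span of any member was 0.32, in Potri.004G040100. These spans describe the libraries that chose the loci.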

How the data were processed

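The authors deposited 1 table per library with transcript identifiers and values named FPKM in the file headers of the 2 libraries at 0 h. The later tables carry only the sample's title as a header and were taken to hold FPKM too. The submitters' processing notes list Bowtie2 2.2.3 and HISAT2 2.1.0 and assign them no step. Not given in the sources used here are the build, the annotation and the FPKM software. Each table ends at line 65536, in identifiers of prefix 17, and later loci were not analysed here.

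The members, lists and tests were chosen with earlier results of these data known. Locus sums were analysed as log2(FPKM + 1) with limma 3.58.1 in R 4.3.3 (trend, robust, two-sided) and Python 3.11.15, over loci with at least 1 FPKM in at least 2 libraries. Fold changes are on that scale. The share test used log2 of leading over other transcripts, each with 0.5 FPKM added, over loci where both averaged at least 1 FPKM. Benjamini-Hochberg adjustment ran over all loci tested. Named loci were the 10 highest, the 10 narrowest, the 5 with the largest called change at 0 h, the 5 with the largest called share change and the 3 on each side of each limit; others are marked as named after their values were seen. The 0 h and share tests were tested on simulated data with known changes. Read totals came from a search for whole-number transcript lengths from low FPKM values; all 5822 transcripts searched in loci of at least 50 FPKM gave a length from 60 to 17000 bp with whole reads within 0.01 reads after cutting, against 0 of 500 with shifted values. Gene lists, tissue markers and promoter motifs fixed by description could not be matched and were not used here.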

Additional observations from a re-analysis of the deposited data

How the results depend on the processing

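The count of 79 depends on its limits: 10 loci had a range of at most 0.3, 540 of at most 1, 330 met the rule from 20 FPKM and 31 from 100 FPKM. With single transcripts as the unit 47 transcripts met it, with 0 h included 40 loci did and with the range over the 16 libraries 42. Leaving out any of the 16 libraries gave between 71 and 85 loci, of which 69 to 78 were among the 79, and 1 replicate number alone gave 64. A pseudocount of 0.1 gave 76. For 0 h against later, quantile normalization called 45 steady loci higher in place of 27, and the other settings over all loci gave 27 to 29 higher and 24 or 25 lower. Among loci with 1 listed transcript, which include only 16 of the 79, 10353 loci were called, with 4 steady loci higher and 9 lower. The F test after cutting called 12630 of them, 10 of them steady. These counts come from a smaller set and are not comparable with those of all loci. Leaving out single libraries gave 21 to 31 steady loci higher and 21 to 25 lower. The 167 loci called for their leading share became 48 with 0.1 FPKM added, 73 with at least 5 FPKM in each part, and 96 to 134 without single libraries, and steady loci stayed at 0 in all these settings. With the replicate number as a block, 27 steady loci were higher and 24 lower at 0 h. Libraries of the same number did not deviate together: the correlations of their deviations over 36 pairs of time points ran from -0.20 to 0.21, and 3 exceeded 0.1. By the fitted read totals, each of the 79 loci had at least 729 reads per library after cutting, and an effect of depth was not tested.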
